A study of Mus musculus with 12 samples.

Results

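The genes Ubd, Galc, Ttc8, Efcab11, Caps2, Glipr1, Prex2, Ccnb1ip1, Tesc and Gt(ROSA)26Sor already differed at least 2-fold between knockout and control mouse embryonic stem cells after 1.5 days of tamoxifen. They are 10 of the 18194 genes on the array that were read by at least 1 probe set with a single gene symbol, and hold 18 of 34958 such probe sets. A probe set is a group of short probes for the same transcript, and the brightest over all 12 arrays stands for a gene unless another is named. The 10 genes were picked by name from the difference of day 1.5, so every value of that day is a description and was not tested. Size of the day 1.5 difference ranked Ubd 1, Galc 2, Ccnb1ip1 3, Gt(ROSA)26Sor 4, Caps2 5, Tesc 6, Prex2 9, Ttc8 20, Glipr1 25 and Efcab11 39 over all genes. The questions were whether each gap stayed, grew or closed by day 6, and whether the other probe sets of a gene showed it.

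The knockout cells were CreERT2; Roninflox/flox cells, sampled after 1.5, 3 and 6 days in 0.25 µM tamoxifen. The controls were Roninflox/flox cells given the same tamoxifen for the same times. Ronin is the protein of Thap11, a zinc finger transcription factor needed for the self-renewal of embryonic stem cells. Tamoxifen lets CreERT2, a Cre recombinase, enter the nucleus and cut out the floxed part of the gene. Both genotypes thus shared the floxed alleles and the drug, with 2 arrays in each of the 6 groups. Cultures of both were split on day 4, so only the arrays of day 6 follow the split. In a change from day 3 to day 6, time and the split cannot be told apart. Every knockout array and no control array had CreERT2, so the loss of Ronin, the recombinase and any older difference between the cell lines cannot be told apart. No arrays of untreated cells were used here, so whether a gap was there before tamoxifen was not tested. The labels do not say whether a genotype is 1 clone, where CreERT2 was inserted, or whether replicate arrays hold RNA of separate cultures. The p-values therefore measure only the spread between these arrays, which may be technical.

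The members act in different pathways. Ubd encodes FAT10, a ubiquitin-like protein that marks proteins for the proteasome and is induced by interferon gamma and tumour necrosis factor. Galc encodes the lysosomal enzyme galactosylceramidase, Ttc8 a subunit of the BBSome that carries membrane proteins into cilia, and Prex2 an exchange factor that activates the small GTPase Rac. Efcab11, Caps2 and Tesc encode proteins with EF-hand calcium-binding motifs, Glipr1 a secreted or membrane protein of the CAP family, and Ccnb1ip1 the ligase HEI10 of meiotic crossing over. Gt(ROSA)26Sor is the noncoding transcript of the Rosa26 locus, a site often used to insert transgenes because it is active in nearly all mouse tissues.

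In the RefSeq gene order of the GRCm38.p6 assembly, 3 of the 10 genes lie close together on chromosome 12, in the order Galc, Ttc8 and Efcab11, with 9 measured genes between them. Glipr1 and Caps2 lie on chromosome 10 with only Glipr1l1 and Glipr1l2 between them. The other genes stand alone, Prex2 on chromosome 1, Tesc on chromosome 5, Gt(ROSA)26Sor on chromosome 6, Ccnb1ip1 on chromosome 14 and Ubd on chromosome 17. The 250 bases before the start site are shown for the 3 genes of chromosome 12, which were higher together in knockout cells, and for Ubd, which had the largest gap on day 1.5. They are from RefSeq (GRCm38.p6), 5' to 3' on the strand of the gene, with each CG dinucleotide in capitals.
Ubd promoter, chr17:37193642-37193891, plus strand: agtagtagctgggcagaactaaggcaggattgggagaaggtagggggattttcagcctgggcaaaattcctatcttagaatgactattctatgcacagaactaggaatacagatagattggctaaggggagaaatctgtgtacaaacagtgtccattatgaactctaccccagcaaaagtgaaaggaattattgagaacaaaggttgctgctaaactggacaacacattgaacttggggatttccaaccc
Galc promoter, chr12:98259460-98259709, minus strand: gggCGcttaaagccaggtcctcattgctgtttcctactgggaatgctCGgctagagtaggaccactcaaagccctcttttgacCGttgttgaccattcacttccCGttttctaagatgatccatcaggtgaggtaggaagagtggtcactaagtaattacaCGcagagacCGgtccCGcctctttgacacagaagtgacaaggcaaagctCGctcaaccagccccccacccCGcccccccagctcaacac
Ttc8 promoter, chr12:98920324-98920573, plus strand: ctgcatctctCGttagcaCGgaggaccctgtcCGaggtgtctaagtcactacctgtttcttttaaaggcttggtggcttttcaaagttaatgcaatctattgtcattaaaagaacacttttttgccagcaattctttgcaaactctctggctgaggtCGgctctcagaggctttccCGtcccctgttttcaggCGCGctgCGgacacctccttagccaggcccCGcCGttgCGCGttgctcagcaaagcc
Efcab11 promoter, chr12:99883443-99883692, minus strand: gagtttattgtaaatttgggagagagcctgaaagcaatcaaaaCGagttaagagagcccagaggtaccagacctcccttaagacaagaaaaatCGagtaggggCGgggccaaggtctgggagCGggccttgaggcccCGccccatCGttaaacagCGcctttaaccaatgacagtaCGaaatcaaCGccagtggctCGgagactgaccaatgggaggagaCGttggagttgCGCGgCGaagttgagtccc
The Ubd window held 0 CG dinucleotides, the Galc window 9, the Ttc8 window 12 and the Efcab11 window 14, against a median of 6 over 32851 promoters. The other matched windows held 3 in Caps2, 7 in Ccnb1ip1 and 26 in Tesc, so the 7 promoters that could be matched ranged from 0 to 26. Both strands of each window were searched for a long and a short consensus form of the motif reported for Ronin, an interferon-response form and a narrow form bound by NF-kB. They stood in 0.95%, 1.67%, 2.98% and 0.356% of all promoters, every long form being counted among the short ones, and in 0 of the 7. A looser NF-kB form, added after the data were seen, stood in 7.25% of all promoters and in 1 of the 7, that of Ubd. These matches describe the letters of the windows only.

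The deleted gene was checked in every array. Thap11 read 327 and 354 in knockout arrays of day 1.5, against 1262 and 1181 in controls. It read 110.2 and 92.7 in knockout cells against 1279 and 1290 in controls on day 3, and 50.6 and 51.5 against 1305 and 1382 on day 6. Knockout cells thus held 27.9%, 7.9% and 3.8% of the control intensity on the 3 days. Whether the probe set lies in the part that Cre removes was not analysed here. Intensities are deposited values on a linear scale, and differences are given as log2 of knockout over control, so that 1 is 2-fold. Median intensities of the arrays lay between 42.4 and 44.7. The 10 embryonic stem cell markers had summed intensities of 78300 to 81000 in knockout and 76850 to 80230 in control arrays. Of these 10 markers 1 rose and 2 fell in knockout cells on each later day. By the same test, described below, 23.4% of all genes differed on day 3 and 32.5% on day 6.

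On day 6, 9 of the 10 genes still differed in the direction of day 1.5, with a larger gap in 4 and a smaller one in 5, and Glipr1 no longer differed past the test. On day 3, 7 of the 10 genes were higher in knockout cells, a direction called in 13.3% of all genes, and 2 were lower, which was called in 10.0%. The same counts, 7 higher and 2 lower, held on day 6, when 17.2% of all genes were called higher and 15.3% lower. A call is a Benjamini-Hochberg adjusted p under 0.05 over all 18194 genes in limma, a linear model that shares the estimate of the spread between genes. On both days the uncalled gene was Glipr1, and the 9 called genes kept their direction of day 1.5. At least 2-fold gaps were seen in 8 of 10 genes on day 3, against 1.07% of all genes, and in 8 of 10 on day 6, against 2.49%. On day 1.5 all 10 passed that size by choice, against 0.269% of all genes, or 49 genes. Knockout and control arrays did not overlap for 9 of 10 genes on day 3 and for 9 on day 6, shares that were 57.2% and 65.1% over all genes. The median size of the log2 gap was 1.92 on day 1.5, then 1.69 on day 3 and 1.76 on day 6, where that of all genes was 0.1, 0.13 and 0.15.

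**Figure D1:**
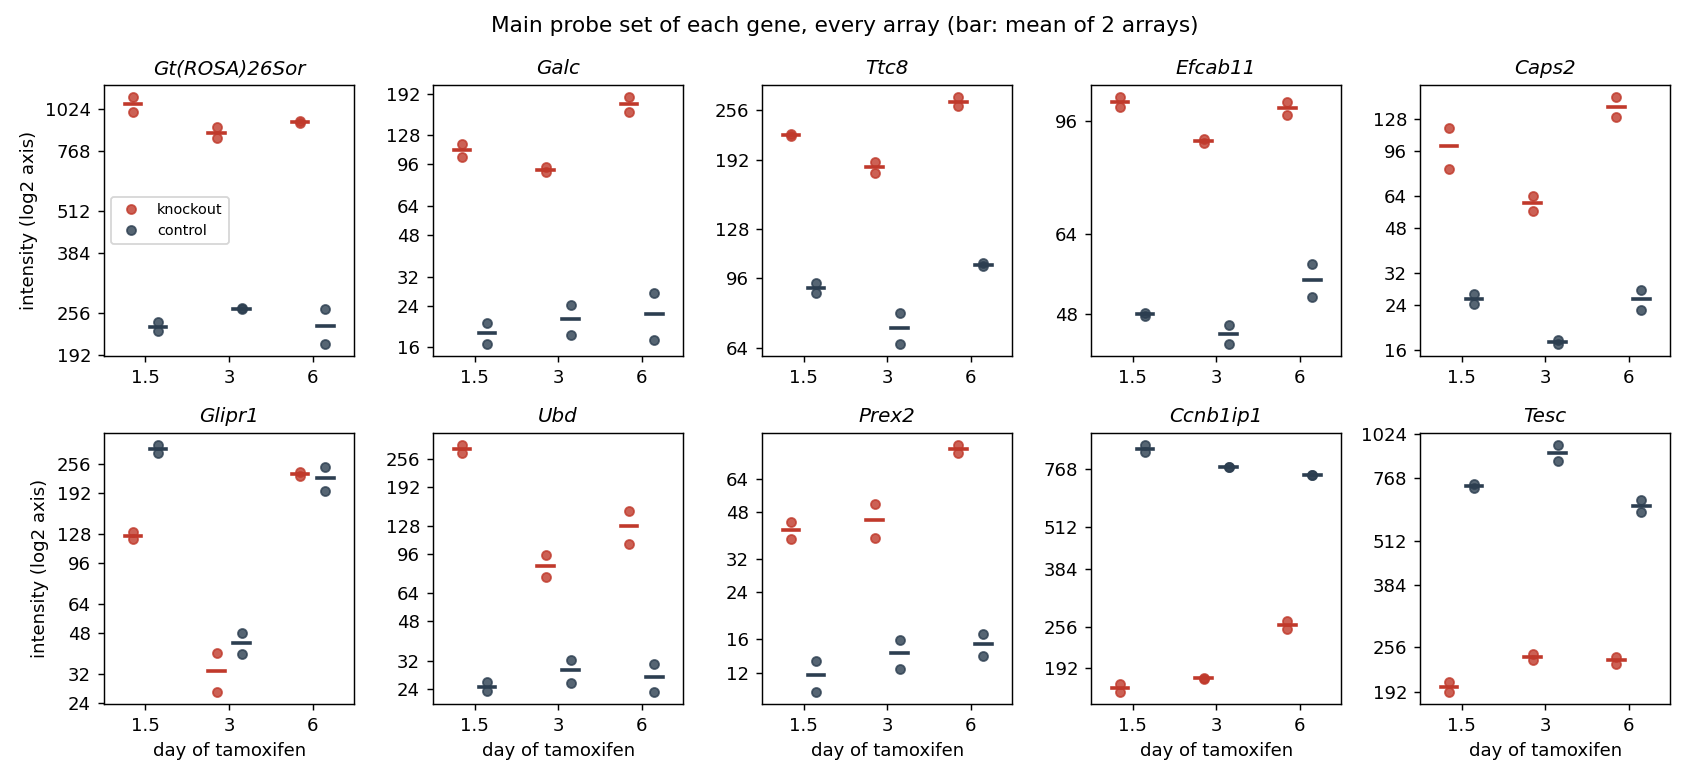
Intensity (log2 axis) of the main probe set of each gene on days 1.5, 3 and 6 of tamoxifen, with a point for each array and a bar for the mean of 2 arrays, knockout left of control. Knockout points lie apart from control points on all 3 days in every panel but Glipr1, where they overlap on days 3 and 6.

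Gt(ROSA)26Sor, the Rosa26 transcript, was the brightest of the higher genes and its gap stayed. It read 1107 and 1002 in knockout arrays of day 1.5, against 239.5 and 226 in controls. It read 839 and 902 in knockout arrays of day 3 against 264 and 262 in controls, and 939 and 932 against 261 and 207 on day 6. The lowest knockout array lay far above the highest control array on each day, with folds of 4.53, 3.31 and 4.02. The log2 gap was 2.18 on day 1.5. It was 1.73 ± 0.10 (SE) on day 3 and 2.01 ± 0.10 on day 6, with limma adjusted p of 9.1e-06 and 1.3e-06. The change of the gap between days 3 and 6 was 0.28, with a 95% interval of -0.04 to 0.61 and an adjusted p of 0.23. Neither genotype changed past the test between these days. Without control replicate 1 of day 6 the gap grew by 0.45 (adjusted p 0.035) and controls fell by 0.35 (adjusted p 0.027). The genes on either side of it in the RefSeq order did not share the gap: Thumpd3 differed by -0.14 (adjusted p 0.076) and Setd5 by -0.23 (adjusted p 0.043) on day 6.

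Galc, which breaks down galactosylceramide in lysosomes, had the largest gap of the 10 on day 6. Its intensity was 117 and 103 in knockout arrays and 16.6 and 20.3 in control arrays of day 1.5. On day 3 it was 89.0 and 93.6 in knockout arrays, against 24.2 and 18.0 in controls. On day 6 it was 161 and 185 in knockout arrays, against 27.2 and 17.1 in controls. The groups did not overlap, and the control signal stayed below the array medians throughout. On the log2 scale the difference was 2.58 on day 1.5, then 2.13 ± 0.21 on day 3 and 3.00 ± 0.21 on day 6, the last being 8.0-fold (limma adjusted p 0.00014 on day 3 and 9.3e-06 on day 6). Between days 3 and 6 knockout cells rose by 0.92 (adjusted p 0.0096), while controls differed by 0.05 (adjusted p 0.9). The change of the gap itself, 0.87 with a 95% interval of 0.19 to 1.56, did not pass after adjustment (p 0.083). The rise in knockout cells had an adjusted p of 0.054 without knockout replicate 1 of day 3 and 0.059 without knockout replicate 2 of day 6. Without control replicate 1 of day 6 the change of the gap was 1.21 and passed (adjusted p 0.019), and without control replicate 2 of that day it was 0.54 (adjusted p 0.2).

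Ttc8, the BBSome subunit, kept its gap almost unchanged while both genotypes moved together. It read 224 and 220 in knockout arrays and 93.3 and 88.2 in control arrays of day 1.5. It read 178 and 190.0 in knockout arrays of day 3 against 65.5 and 78.4 in controls, and 263 and 277 against 104 and 105 on day 6. No knockout array came near the control range of its own day. Knockout minus control came to 1.29 on day 1.5, then 1.36 ± 0.08 on day 3 and 1.37 ± 0.08 on day 6 (limma adjusted p 1e-05 and 3.5e-06). It changed by 0.01 between days 3 and 6, with a 95% interval of -0.25 to 0.28 (adjusted p 0.96). Over those days Ttc8 rose by 0.55 in knockout cells (adjusted p 0.00098) and by 0.54 in controls (adjusted p 0.0018). Set against controls of day 6, the knockout arrays of day 3 gave a smaller gap of 0.82, which still passed (adjusted p 0.00018).

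Efcab11, an EF-hand protein of little known function, had the smallest gap of the 10 on day 1.5. Its brightest probe set read 105 and 101 in knockout arrays of day 1.5, against 48.1 and 47.7 in controls. It read 88.6 and 89.8 in knockout arrays of day 3 against 43.1 and 46.2 in controls, and 98.0 and 103 against 50.9 and 57.4 on day 6. The groups lay clearly apart on each day. The log2 gap was 1.10 on day 1.5, then 1.00 ± 0.07 on day 3 and 0.89 ± 0.07 on day 6 (limma adjusted p 1.8e-05 and 1.3e-05). The change between days 3 and 6 was -0.11, with a 95% interval of -0.32 to 0.11 (adjusted p 0.52). Over those days controls rose by 0.28 (adjusted p 0.015) and knockout cells differed by 0.17 (adjusted p 0.08). The call in controls was lost without control replicate 1 of day 3 (0.23, adjusted p 0.078) and without control replicate 2 of day 6 (0.19, adjusted p 0.1). The suffix of this probe set marks probes that can bind other transcripts too. Of its neighbours between Galc and Efcab11, 3 of 9 were called on day 6, close to the 32.5% of all genes. They were Ptpn21 at 0.44, 4930474N09Rik at 0.35 and Foxn3 at 0.22. The other 6 lay between -0.04 and 0.09.

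Caps2, the calcyphosine relative on chromosome 10, was higher in knockout cells on all days. It read 118 and 81.4 in knockout arrays of day 1.5, against 24.1 and 26.5 in controls. It read 55.7 and 64.0 in knockout arrays of day 3 against 17.4 and 16.9 in controls, and 155 and 129.8 against 27.4 and 22.9 on day 6. The groups were apart on every day, although the 2 knockout arrays of day 1.5 differed more than those of the other days. On the log2 scale the difference was 1.96 on day 1.5, then 1.80 ± 0.17 on day 3 and 2.50 ± 0.17 on day 6 (limma adjusted p 9.6e-05 and 7e-06). It changed by 0.70 between days 3 and 6, with a 95% interval of 0.16 to 1.25 and an adjusted p of 0.079. Knockout cells rose by 1.25 over these days (adjusted p 0.00057) and controls by 0.55 (adjusted p 0.041). The change of the gap passed when either knockout array of day 1.5 was left out (adjusted p 0.029 each). The call in controls was lost when any single array of days 3 or 6 of the controls was left out, with adjusted p of 0.053 to 0.2, and also without control replicate 1 or 2 of day 1.5 (0.054 each) or knockout replicate 1 or 2 of day 3 (0.051 each).

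Glipr1, the CAP family gene beside Caps2, was the gene whose gap closed. It read 131 and 122 in knockout arrays of day 1.5, against 309.5 and 286 in controls. On day 3 it read 39.3 and 26.8 in knockout arrays, against 39.0 and 48.1 in controls. On day 6 it read 237 and 228 in knockout arrays, against 197 and 251 in controls. Control arrays were the higher ones on day 1.5 only, and the groups overlapped on days 3 and 6. Knockout minus control came to -1.24 on day 1.5, -0.42 ± 0.18 on day 3 (limma adjusted p 0.14) and 0.07 on day 6, with a 95% interval of -0.34 to 0.47 (adjusted p 0.83). Both genotypes were low on day 3, and from there Glipr1 rose by 2.84 in knockout cells (adjusted p 9e-06) and by 2.36 in controls (adjusted p 5.2e-05). Day 3 rests on single arrays: the gap was -0.69 and passed without knockout replicate 1 of that day (adjusted p 0.025), -0.14 without knockout replicate 2 (adjusted p 0.62) and -0.26 without control replicate 2 (adjusted p 0.47). The change of the gap between days 3 and 6, 0.48 (adjusted p 0.24), was 0.76, 0.21 and 0.31 without knockout replicate 1 of day 3, knockout replicate 2 of day 3 and control replicate 1 of day 6, with adjusted p of 0.055, 0.58 and 0.52.

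Markers of other cell types moved with Glipr1 in part. The 17 measured of 18 fibroblast markers summed to 1135 to 1164 in knockout arrays and 2089 to 2140 in control arrays of day 1.5. Their sums were 1197 to 1218 in knockout arrays of day 3 against 883 to 899 in controls, and 3733 to 3798 against 2887 to 3115 on day 6. The 12 extraembryonic endoderm markers summed to 5973 to 6096 in knockout arrays and 8181 to 8443 in controls on day 1.5. They summed to 5192 to 5329 against 4534 to 4654 on day 3, and to 8808 to 8954 against 8414 to 8482 on day 6. None of these markers read 0 in any array, but the lowest value of any probe set was 5.511. This therefore does not show that each marker was expressed. By the test, 3 fibroblast markers rose and 0 fell in knockout cells on day 3, and 3 rose and 5 fell on day 6. Of the endoderm markers 4 rose and 2 fell on day 3, and 2 rose and 4 fell on day 6. The shares called over all genes were 23.4% on day 3 and 32.5% on day 6. As with Glipr1, both sums were lower in knockout than in control arrays on day 1.5, were lowest in controls on day 3 and were not lower in knockout arrays on day 6. Unlike Glipr1 (-0.42, not past the test), both sums were higher in knockout than in control arrays on day 3. The fibroblast sum of knockout arrays did not dip on day 3, whereas Glipr1 did. Sums weigh bright genes most, and the median log2 differences of day 6 were -0.21 for fibroblast and -0.22 for endoderm markers. In bulk RNA, fewer cells of a type and less RNA per cell cannot be told apart, and the part of these markers in the Glipr1 result was not tested.

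Ubd, the gene of FAT10, had the widest gap of all genes on day 1.5 and a smaller one later. It read 270.4 and 294 in knockout arrays of day 1.5, against 25.6 and 23.3 in controls, which was 11.6-fold. It read 94.6 and 75.7 in knockout arrays of day 3 against 32.4 and 25.5 in controls, and 149 and 106 against 31.0 and 23.2 on day 6. The control level was similar on all days, and the knockout level was lowest on day 3. The log2 gap was 3.53 on day 1.5, then 1.56 ± 0.20 on day 3 and 2.23 ± 0.20 on day 6 (limma adjusted p 0.00055 and 3.8e-05). The gap of day 6 was 63.2% of that of day 1.5 on the log2 scale. The change between days 3 and 6 was 0.67 with a 95% interval of 0.04 to 1.31 and did not pass after adjustment (p 0.15). Without knockout replicate 1 of day 6 it was 0.42 (adjusted p 0.38). Knockout cells differed by 0.57 between these days (adjusted p 0.053), and that change was 0.32 without knockout replicate 1 of day 6 (adjusted p 0.31). It passed without control replicate 1 or 2 of day 6 (adjusted p 0.043 each) and, at 0.82, without knockout replicate 2 of day 6 (adjusted p 0.023).

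Prex2, the exchange factor of the small GTPase Rac, was the dimmest member and its gap was largest on day 6. It read 43.9 and 38.2 in knockout arrays of day 1.5, against 13.3 and 10.2 in controls. It read 38.3 and 51.6 in knockout arrays of day 3 against 12.4 and 15.9 in controls, and 80.1 and 85.5 against 13.9 and 16.8 on day 6. The control signal lay far below the array medians on all days, and only on day 6 were both knockout arrays above them. On the log2 scale the difference was 1.82 on day 1.5, then 1.66 ± 0.19 on day 3 and 2.44 ± 0.19 on day 6 (limma adjusted p 0.00025 and 1.4e-05). Knockout cells rose by 0.90 between days 3 and 6 (adjusted p 0.0055), while controls differed by 0.12 (adjusted p 0.68). The change of the gap was 0.78 with a 95% interval of 0.19 to 1.37 and an adjusted p of 0.076, and it was 0.99 and passed without knockout replicate 2 of day 3 (adjusted p 0.046).

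Ccnb1ip1, whose protein HEI10 marks sites of meiotic crossing over, was the most strongly lowered of the 10, and its gap became smaller. It read 163 and 172 in knockout arrays of day 1.5, against 905 and 864 in controls. It read 179.7 and 178.5 in knockout arrays of day 3 against 778 and 779 in controls, and 267 and 252 against 736 and 737 on day 6. Every control array was above every knockout array. Knockout minus control came to -2.40 on day 1.5, then -2.12 ± 0.05 on day 3 and -1.50 ± 0.05 on day 6 (limma adjusted p 1.8e-07 and 2.1e-07). Between days 3 and 6 the gap shrank by 0.62 ± 0.08, a change that passed (adjusted p 0.0012). The knockout level rose by 0.54 over these days (adjusted p 0.00011), while controls differed by -0.08 (adjusted p 0.31).

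Tesc encodes tescalcin, an EF-hand protein that binds sodium-proton exchangers, and was also lower in knockout cells throughout. It read 205 and 192 in knockout arrays of day 1.5, against 737 and 721 in controls. It read 246 and 236 in knockout arrays of day 3 against 949.5 and 859 in controls, and 241 and 229.7 against 616 and 667 on day 6. The knockout level was nearly level from day 3 to day 6, and the controls were higher on every day. The log2 gap was -1.88 on day 1.5, then -1.91 ± 0.07 on day 3 and -1.44 ± 0.07 on day 6 (limma adjusted p 7.7e-07 and 9.7e-07). It shrank by 0.46 ± 0.10 between days 3 and 6 (adjusted p 0.013). Here controls fell by 0.49 (adjusted p 0.0011), while knockout cells differed by -0.03 (adjusted p 0.74). The adjusted p of the change of the gap was 0.052 without control replicate 1 of day 6 (0.40) and without knockout replicate 1 of day 6 (0.42). The suffix of its main probe set marks probes shared with other transcripts.

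Set side by side, the gap of day 6 was larger than that of day 1.5 for Galc, Ttc8, Caps2 and Prex2, at 116.1%, 106.3%, 128% and 134% of its log2 size. It was smaller for the other 6, at 92.2% for Gt(ROSA)26Sor, 81.2% for Efcab11, 76.9% for Tesc, 63.2% for Ubd and 62.7% for Ccnb1ip1, and near 0 for Glipr1. On day 3 it stood at 105.4% for Ttc8 and 101.4% for Tesc, and between 33.6% for Glipr1 and 92% for Caps2 for the other 8. Only the change from day 3 to day 6 could be tested, and it passed for 2 of 10 genes, Ccnb1ip1 and Tesc, against 16.4% of all genes. Both had gaps below 0 that came nearer to 0. Galc, Prex2, Caps2 and Ubd had larger changes, of 0.87, 0.78, 0.70 and 0.67. Their SE of 0.24 to 0.30 were also larger than 0.08 for Ccnb1ip1 and 0.10 for Tesc. The test thus does not show that only gaps below 0 changed. Between days 3 and 6 the control level of 5 genes passed, 4 up and 1 down (27.5% of all genes), and the knockout level of 6 genes passed, all upward (33.5% of all genes). The 6 were Galc, Ttc8, Caps2, Glipr1, Prex2 and Ccnb1ip1.

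**Figure D2:**
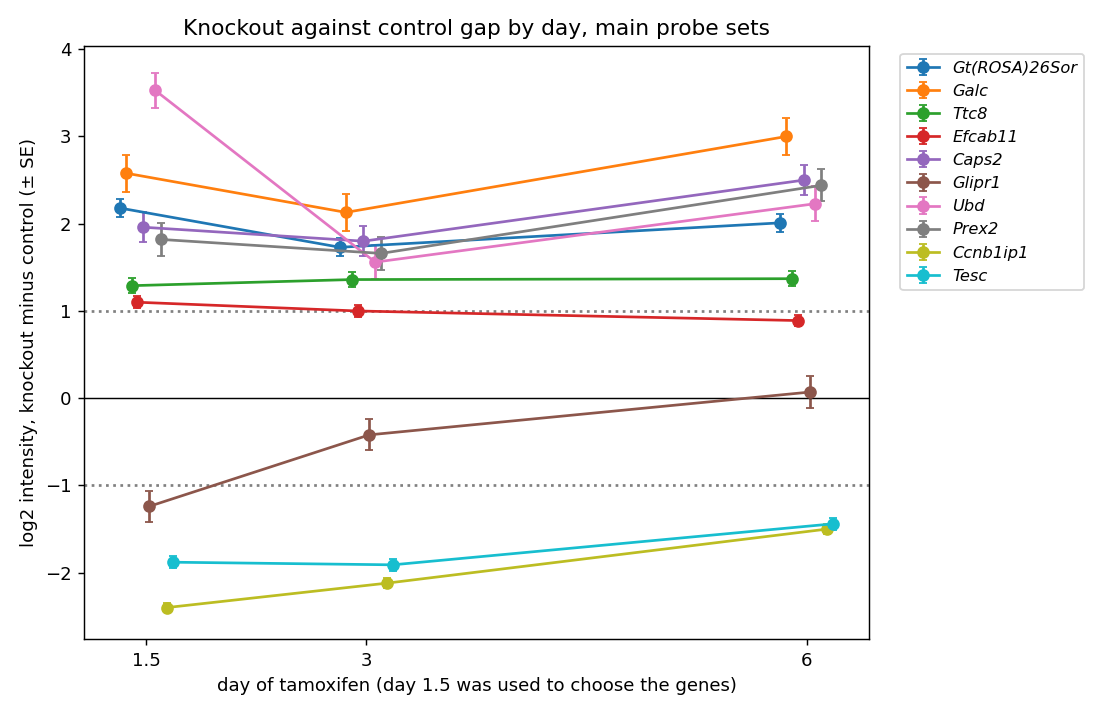
Log2 difference of knockout minus control (± SE from the fit over 12 arrays) of the main probe sets on days 1.5, 3 and 6, with dotted lines at 2-fold in either direction and points moved sideways for legibility. Glipr1 ends at 0.07, Ubd starts at 3.53 and ends at 2.23, and Ccnb1ip1 and Tesc come nearer to 0 by day 6.

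The other probe sets of the genes showed the gap in part. Of the 10 genes, 4 were read by 1 probe set, and the other 6 had 8 further probe sets. On day 3, 6 of these 8 had the sign of the main probe set and 2 passed over all 45101 probe sets, where 12.6% did. On day 6, 4 of 8 had that sign and 3 passed, where 19.5% did, each in the direction of its main probe set. Tesc had the gap on its other probe set too, 1418743_a_at, which read 101 and 89.2 in knockout arrays of day 3 against 291 and 266 in controls, and 93.9 and 92.0 against 220 and 227 on day 6. Its log2 gap was -1.68 on day 1.5, then -1.55 on day 3 and -1.27 on day 6 (limma adjusted p 2.2e-05 and 2.5e-05 for the later days). The shrinking of the gap did not pass on that probe set, at 0.29 (adjusted p 0.26).

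Efcab11 had one further probe set with the gap and one without. 1430339_at read 34.6 and 37.7 in knockout arrays of day 3 against 21.3 and 23.2 in controls, and 73.5 and 81.6 against 25.3 and 24.6 on day 6. Its log2 gap was 1.16 on day 1.5, then 0.70 on day 3 and 1.63 on day 6 (limma adjusted p 0.0089 and 4e-05). On this probe set the gap grew by 0.94 from day 3 to day 6 (adjusted p 0.021), whereas on the brightest probe set it changed by -0.11. The dim 1431666_at, with no array above 10.45, differed by -0.00, -0.11 and -0.15 on the 3 days, and neither later day passed.

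For Galc, Caps2, Prex2 and Glipr1 the further probe sets were dim or flat. Both other probe sets of Galc had no array above 23.1, and their log2 gaps of day 6 were -0.02 and -0.25 (limma adjusted p 0.94 and 0.11). In control arrays the main probe set of Galc was about as dim, at 16.6 to 27.2, against 19.2 to 21.3 for 1420547_at. The main probe set was the brightest largely through its knockout arrays, at 89.0 to 185, so its choice already carries the gap. Why the probe sets of Galc differ was not tested. Caps2 had a dim probe set, 1431539_at, at 17.0 and 16.6 in knockout arrays of day 6 against 11.2 and 13.5 in controls, a gap of 0.45 that passed (adjusted p 0.011). The further probe set of Prex2 read 11.5 and 11.3 in knockout arrays of day 6 against 11.01 and 9.78 in controls, a gap of 0.13 (adjusted p 0.62). Glipr1 differed in another way, since its further probe set, 1449746_s_at, was not dim. It read 86.4 and 91.8 in knockout arrays of day 1.5 against 84.4 and 91.1 in controls, where the main probe set had differed by -1.24. That probe set gave gaps of -0.06 on day 3 and -0.18 on day 6 (adjusted p 0.72 and 0.21), and its suffix marks probes shared with other transcripts. When the log2 values of all probe sets of a gene were averaged, the gap of day 6 was 0.91 for Galc, 1.48 for Caps2 and 1.29 for Prex2, and that of day 3 was 0.76, 1.02, 0.86 and, for Efcab11, 0.53, and each of these still passed. The rise of Galc in knockout cells from day 3 to day 6 was then 0.24 and did not pass (adjusted p 0.12). Caps2 and Prex2 on day 3 were 1.19 and 1.01 when 16 was added to each intensity before taking log2, and both passed.

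**Figure D3:**
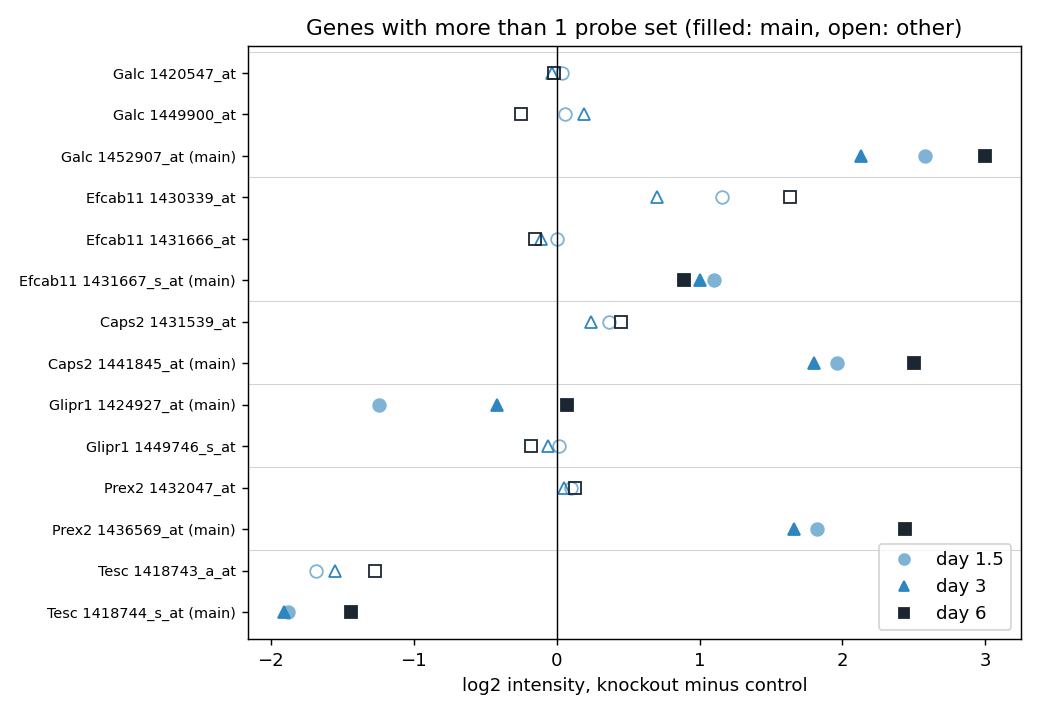
Log2 difference of knockout minus control for every probe set of the 6 genes with more than 1, with filled markers for the brightest probe set and open markers for the others, and a marker shape for each day. The further probe set of Tesc lies near its main probe set, 1 of Efcab11 has the sign of its main probe set and reaches 1.63 against 0.89 on day 6, while those of Galc, Prex2 and Glipr1 lie near 0.

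Among partners and relatives of the members, some rose and others fell. The lists used for them were written with earlier results of these data known, and they hold no member. Over all genes 23.4% were called on day 3 and 32.5% on day 6, with median differences of 0.028 and -0.001. Of 9 measured genes of FAT10 conjugation and turnover, 5 rose on day 3 and 0 fell, and on day 6 2 rose and 2 fell, with a median of 0.13. There the deacetylase gene Hdac6, whose protein takes FAT10 conjugates to aggresomes, rose by 0.61, and the proteasome deubiquitinase gene Usp14 and the chaperone gene Aipl1 fell by 0.50 and 0.38. Among 18 inflammatory regulators and companions of Ubd, 2 rose and 1 fell on day 3, and on day 6 4 rose and 5 fell, with a median of 0.0. B2m, the light chain of class I molecules, rose by 0.81 on day 6, the NF-kB inhibitor gene Tnfaip3 by 0.51 and the NF-kB subunit gene Rela by 0.51.

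Sphingolipid genes act in the pathways around Galc. Of 15 measured, 1 rose and 7 fell on day 3, and 5 rose and 2 fell on day 6, with medians of -0.17 and 0.20. The lysosomal hydrolase genes Asah1, Hexa and Glb1 rose by 0.86, 0.80 and 0.42 on day 6, and Hexa fell by 0.62 on day 3. Of 11 genes of the BBSome and its assembly factors, 2 rose and 0 fell on day 3, and 4 rose and 3 fell on day 6. Bbs4 and Bbs1, subunits beside Ttc8, rose by 0.46 and 0.45 on day 6, and Bbs12, of the chaperonin complex that builds the BBSome, fell by 0.51. The gap of Ttc8 itself was 1.37.

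Relatives of the other members were called in both directions in some lists and in 1 direction in others. Of 25 EF-hand genes, 2 rose and 6 fell on day 3, and 7 rose and 6 fell on day 6. Efhd1, a mitochondrial EF-hand protein, rose by 1.45 on day 6, Efhc2 by 0.87, and Calml4 fell by 0.71. Of 9 CAP family genes, 2 rose on day 3, and on day 6 Crispld2 rose by 1.18 and Glipr2 fell by 0.28. Among 10 meiotic crossover factors, 2 rose and 1 fell on day 3, and 3 rose and 1 fell on day 6, when Tex11 and Mei4 rose by 1.02 and 0.63 and the recombinase gene Dmc1 fell by 0.32. Of 3 genes for B-type cyclins and their kinase, 1 rose on each day, Ccnb2 by 0.18 on day 6. Of 6 sodium-proton exchangers, 2 fell on each day, Slc9a5 by 0.56 and Slc9a7 by 0.45 on day 6.

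The nearest neighbours of the members on the chromosome did not share the day 1.5 gap. Of 151 measured genes within 10 places on either side of a locus, members left out, 0 differed at least 2-fold on day 1.5. Their differences lay between -0.65 and 0.80, with a median of 0.03. Within 20 places 1 of 291 was at least 2-fold apart on that day, Tspan8 at the Caps2 and Glipr1 locus. It differed by -1.2 on day 1.5, -0.41 on day 3 and -1.19 on day 6. Over all genes the share was 0.269%, so these counts cannot set the neighbours apart from other genes. On day 3, 28 were higher and 21 lower, or 32.5%, and on day 6 37 were higher and 16 lower, or 35.1%, against 23.4% and 32.5% of all genes. At the chromosome 12 locus 12 of 29 neighbours were higher and 3 lower on day 6, with Ston2 at 0.70, Dglucy at 0.59 and Cep128 at -1.57. The immediate neighbours outside it, 1700019M22Rik and Tdp1, differed by -0.05 and -0.14 (limma adjusted p 0.72 and 0.12). Glipr1l1 and Glipr1l2, between Glipr1 and Caps2, differed by 0.03 and 0.07 (adjusted p 0.84 and 0.5), and Krr1 and Kcnc2 beyond them by -0.25 and 0.28 (0.023 and 0.16).

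Larger differences near single members were seen on days 3 and 6. Near Prex2, 1700034P13Rik differed by 0.80, 1.46 and 2.60 on days 1.5, 3 and 6, Sulf1 by -0.32, 1.32 and 1.22, and Eya1 by 0.20, 0.27 and 1.20, while the adjoining Cpa6 differed by 0.00 on day 6. Near Gt(ROSA)26Sor, the DNA repair gene Rad18 differed by -0.27, -1.30 and -1.58 on the 3 days. Beside Ccnb1ip1, Ttc5 fell by 0.32 on day 6 (limma adjusted p 0.0022), Parp2 differed by -0.08 (adjusted p 0.31), and Ang, 9 places away, was higher by 1.05. Beside Tesc, Fbxo21 fell by 0.32 on day 6 (adjusted p 0.0029) and Fbxw8 differed by 0.01 (adjusted p 0.96). Gabbr1 and H2-M3, beside Ubd, differed by 0.23 and 0.09 on day 6 (adjusted p 0.18 and 0.39).

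**Figure D4:**
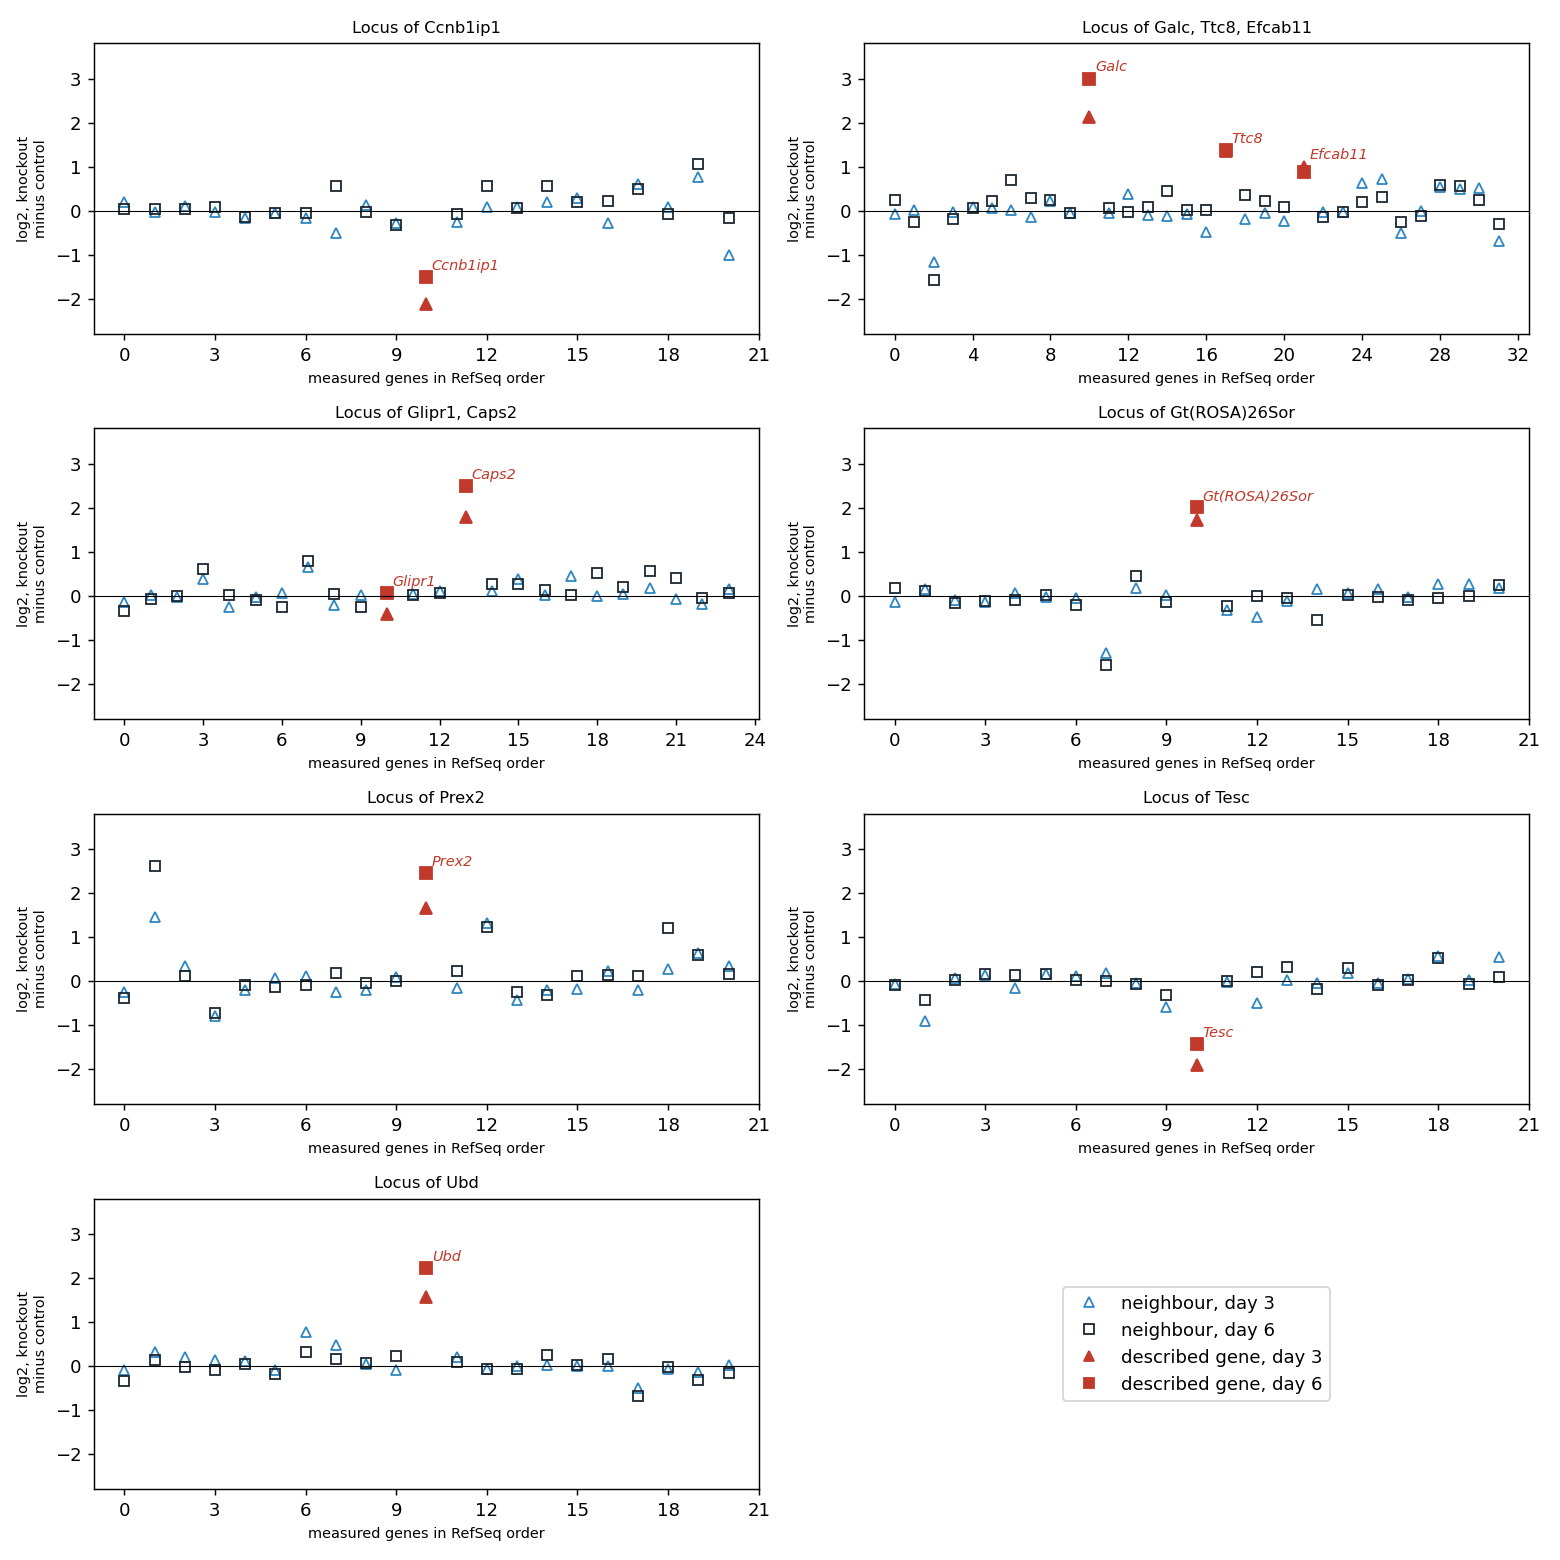
Log2 difference of knockout minus control on days 3 and 6 for the genes (red, filled) and for up to 10 measured neighbours on either side of each locus (open), in RefSeq order along the x axis with no distances. Galc, Ttc8, Efcab11, Caps2, Gt(ROSA)26Sor and Ubd lie above and Ccnb1ip1 and Tesc below all plotted neighbours of the same day. Glipr1 lies below all its neighbours on day 3 (-0.42, lowest neighbour -0.25) and among them on day 6. Near Prex2, 1700034P13Rik reaches 2.60.

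Profiles over the 12 arrays were compared as a description, by the root mean square difference of log2 intensities centred on each gene. Ttc8 and Efcab11, of the same chromosome 12 locus, were the most alike pair of members at 0.229, followed by Ccnb1ip1 and Tesc at 0.268. Galc, of that locus too, lay at 0.685 from Ttc8 and 0.854 from Efcab11, and nearer to Caps2 at 0.391. The measure is smaller for genes that vary less, and Ttc8 and Efcab11 varied least of the members (0.709 and 0.511 about their means). It also includes the day 1.5 arrays that chose the members. Among other genes, Ttc8 was nearest to Rab30 (0.143) and Tmem129 (0.180), and Efcab11 to Cd68 (0.153) and Capsl (0.162). Gt(ROSA)26Sor was nearest to St8sia1 (0.280) and Fxyd6 (0.383), and Prex2 to Kbtbd11 (0.270) and Tmem129 (0.374). The nearest genes were Mrc1 (0.340) and Kbtbd11 (0.449) for Caps2, Mrc1 (0.535) and Kbtbd11 (0.537) for Galc, and Mrc1 (0.669) and St8sia1 (0.721) for Ubd. Ccnb1ip1 was nearest to AI662270 (0.376) and Grb10 (0.433), and Tesc to AI662270 (0.329) and Klf15 (0.370). Glipr1 was nearest to the collagen genes Col4a1 (0.401) and Col4a2 (0.408), of which Col4a1 is in the extraembryonic endoderm list.

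Other genes that were at least 2-fold apart on day 1.5, leaving out Thap11, numbered 38, of which 12 were higher and 26 lower in knockout cells. Of them, 17 were at least 2-fold apart in the same direction on day 6 and 5 had the other sign, where the 10 genes described had 8 and 1. Their median size was 1.19 on day 1.5 and 0.87 on day 6, where that of the 10 genes was 1.92 and 1.76. The 10 were chosen among the larger gaps, so these values stand side by side without a test. Of the 10, Efcab11 lay nearest to the limit, at 1.10, with other genes nearer still. Just outside the limit lay Tmem129 at 0.998 and Myof at 0.988, and below 0 Srgn at -0.975 and Tagln at -0.961. Tmem129 differed by 1.63 and Myof by 1.45 on day 6, Srgn by -0.74 and Tagln by 0.40.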

How the data were processed

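RNA from 12 samples, 2 for each genotype and day, was read on Affymetrix Mouse Genome 430 2.0 arrays. The deposited values are linear intensities per probe set, from 5.511 to 34993, summarised by the authors with RMA per the submitters' processing notes. Its version and a genome build are not given in the sources used here. The design had assumed log2 intensity in the deposited table, so log2 of each deposited intensity was taken before any test. Of 45101 probe sets, 34958 had 1 symbol in the platform annotation, 932 several and 9211 none, and 34754 of those with 1 symbol matched RefSeq GRCm38.p6 by gene ID. The brightest probe set stood for each of 18194 genes, with no filter on dim genes.

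The tests used limma 3.58.1 under R 4.3.3 (lmFit and eBayes, 6 residual and 3.04 prior degrees of freedom, 1 mean per group), and p-values were adjusted by Benjamini-Hochberg at 0.05. The test was tested on simulated data. Array values within a group correlated with r of 0.99816 to 0.99856, and the number of arrays limits the precision. The members, lists, tests and alternatives were chosen with earlier results of these data known. Named were all members with every probe set and Thap11. For each member the 2 genes of nearest profile were named, and from each list up to 3 genes with the largest change past the test on day 6 whose arrays did not overlap; 1 list is not reported here. Likewise named were up to 3 neighbours per locus with the immediate ones, and the 2 genes just outside the limit of 2-fold in each direction. The genes between members were added to them. Replicate numbers are shared between groups. The replicate differences of knockout and control of the same day correlated at -0.00375, -0.0573 and 0.0278. Those of controls of day 1.5 and day 3 correlated at 0.173. The numbers were treated as not pairing the samples, although such correlations cannot exclude a pairing. Alternatives were a replicate block, fewer arrays in the fit, another eBayes setting, a filter on dim genes, all probe sets, 2 further normalizations, an offset of 16, controls of day 6 for day 3, other numbers of neighbours and leaving out each array. Plots were drawn with matplotlib 3.10.9.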

Additional observations from a re-analysis of the deposited data

Results flagged for a closer look

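Ccnb1ip1 and Tesc differed between days in their gap, by the test of the change itself. For Ccnb1ip1 the log2 gap of knockout minus control was -1.50 on day 6 and -2.12 on day 3, a change of 0.62 (limma adjusted p 0.0012), and every array of the knockout cells lay below every control array on both days. For Tesc it was -1.44 on day 6 and -1.91 on day 3, a change of 0.46 (limma adjusted p 0.013), again with no overlap. The further probe set of Tesc changed by 0.29, which did not pass (adjusted p 0.26). Ccnb1ip1 has no further probe set. Groups of 2 arrays are too small to look for single arrays that stand apart.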

How the results depend on the processing

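The calls of the 9 genes on days 3 and 6 were kept under every alternative in which the gene was tested, and no called difference changed sign. Leaving out each array gave 9 to 10 called genes on day 3 and 9 on day 6. Without the dimmest 40% of genes, Galc, Caps2 and Prex2 were not tested. The change of the gap from day 3 to day 6 depended most on the setting: 2 genes passed, against 4 with a replicate block within each day, 6 with an intensity trend and robust prior, 1 with the mean of all probe sets, 5 with log2 of the intensity plus 16, and 1 to 3 when single arrays were left out. Ccnb1ip1 passed in all of these (0.57 to 0.66), and Tesc did not pass with the mean of all probe sets (0.37, adjusted p 0.051). With a replicate block over all arrays Ubd also passed (0.67, limma adjusted p 0.049), and within days Ubd (0.021) and Prex2 (0.014). In the main fit the replicate numbers were treated as not pairing the samples, which could not be settled. The replicate block changed no call of days 3 and 6. On day 1.5, 6 genes were at least 2-fold apart with the mean of all probe sets, against 10. Between days 3 and 6, leaving out single arrays gave 5 to 7 called genes in knockout cells, against 6, and 3 to 5 in controls, against 5 (3 without control replicate 1 of day 3 and without control replicate 2 of day 6). The other settings gave up to 8 in knockout cells (arrays centred on their median) and up to 6 in controls (quantile normalization). Glipr1 passed on day 3 with the trend and robust prior (-0.42, limma adjusted p 0.046). Against controls of day 6 its knockout arrays of day 3 also passed (-2.78). Controls themselves rose by 2.36 from day 3 to day 6, so that value mixes genotype with time and the split. Of the listed genes, 48 passed on day 3, against 26 with only the arrays compared and 31 to 47 without single arrays (31 without knockout replicate 1 of day 3), and 69 passed on day 6 (48 to 73). The share of neighbours past the test on day 3 was 21.2% with only the arrays compared (all genes 13.8%), 55.7% without the dimmest genes (44.8%) and 23.2% to 31.8% without single arrays. On day 6 it was 56.7% without the dimmest genes (all genes 54.2%) and 22.5% to 34.4% without single arrays, the lowest without knockout replicate 1 of day 6 (23.7%). Over all genes the share past the test on day 3 fell too, from 23.4% to 13.8% with only the arrays compared. That share was also lower when any single array was left out. The lower counts of listed genes on day 3 thus went with fewer calls over all genes, and are not particular to the lists. The cause of these changes was not tested. A filter on dim genes also leaves fewer genes to adjust over, and the part of this in the shares was not tested. Dim signals, such as Prex2 in controls, limit how well folds are known.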
